A study of Homo sapiens with 6 samples.

Results

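Integrins are cell-surface receptors made of 1 α and 1 β subunit, and 10 genes for the subunits usually found in epithelial cells are described here: ITGA2, ITGA3, ITGA5, ITGA6 and ITGAV for α chains, and ITGB1, ITGB4, ITGB5, ITGB6 and ITGB8 for β chains. The genes were chosen by name, with earlier results of these data known, and each of the 10 symbols matched 1 of the 59715 gene IDs in the deposited count table. The cells were HCT116, a human colorectal carcinoma line in wide use, with 3 libraries labelled MLL4WT (MLL4 intact) and 3 labelled MLL4KO (MLL4 knocked out). MLL4 is a histone methyltransferase that acts on lysine 4 of histone H3. The labels name no drug or other agent in either group, both were grown in the same serum-containing medium, and the knockout line is not said to be 1 clone or several. Separate cultures are not stated for the 3 libraries of each group either, so the p-values measure the spread between these samples, which may be technical.

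Integrins link the cytoskeleton to the extracellular matrix, and the α and β chains together set which matrix protein is bound. ITGB1 is the shared partner of most α chains, including those of ITGA2 (a collagen receptor), ITGA3 and ITGA6 (laminin receptors) and ITGA5 (the classical fibronectin receptor). ITGB4 pairs only with ITGA6, and this dimer anchors hemidesmosomes, the junctions that fix epithelial cells to the basement membrane. ITGAV pairs with ITGB1, ITGB5, ITGB6 or ITGB8 to bind vitronectin, fibronectin or the latent form of the growth factor TGF-beta.

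Library totals ranged from 6829400 to 19736751 counts, and 14543 genes had enough counts to be tested. MLL4WT replicate 1 was the shallowest library and stood apart from its group, with a chi-square of its counts against MLL4WT replicates 2 and 3 of 7.91 and 7.80 for each degree of freedom, where the other pairs of 1 genotype reached at most 2.48. KMT2D, the gene usually called MLL4, had 231 to 239.7 CPM (counts scaled by library size) in MLL4WT and 225 to 243 CPM in MLL4KO, and KMT2B, also called MLL4, fell 1.42-fold (edgeR-adjusted p = 2.33e-05). Where the knockout was made in the gene is not stated in the labels, so these gene-wide counts do not check them. Of 7 epithelial markers fixed as a list, 6 were tested, and EPCAM, KRT8, KRT18 and KRT19 fell while CDH1 and CDX2 did not pass the test; the list summed to 1607 to 1670 CPM in MLL4WT and 1082 to 1105 CPM in MLL4KO. Fibroblast markers DCN, LUM and THY1, leukocyte markers PTPRC, CD3E, LYZ and ITGAM and endothelial markers CDH5 and KDR stayed under 1 CPM in every library. Of the whole lists, the 7 fibroblast markers (2 higher and 1 lower of 4 tested) summed to 30.2 to 32.5 CPM in MLL4WT and 31.6 to 35.7 CPM in MLL4KO, and the 4 endothelial markers to 1.90 to 2.19 CPM and 3.08 to 3.94 CPM. The 2 tested endothelial markers, VWF and PECAM1, had log2 fold changes of 0.71 and 0.79 (edgeR-adjusted p = 0.0588 and 0.110). The part of these marker levels in the integrin results was not tested.

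In the libraries labelled MLL4KO, RNA of 5 of the 10 integrin genes was lower than in MLL4WT and RNA of 1 was higher. ITGB8, ITGA3 and ITGB4 fell by more than 2-fold, ITGB5 and ITGA6 fell by less, ITGAV rose, ITGA5, ITGA2 and ITGB1 did not pass the test, and ITGB6 had too few counts to be tested. Genes are said to have risen or fallen at an adjusted p under 0.05 in the edgeR quasi-likelihood test of MLL4KO against MLL4WT, with Benjamini-Hochberg adjustment over all 14543 tested genes. By that rule 41.4% of all tested genes were called, 19.8% higher and 21.6% lower in MLL4KO, so 6 called members of 9 tested is to be read against a background in which calls are common. The 2 groups did not overlap for 6 of the 9 tested members (1 higher, 5 lower in MLL4KO), beside 52.5% of all tested genes (25.9% higher, 26.6% lower). A fall of at least 2-fold was rarer, at 2.25% of tested genes, and 3 of the 9 tested members had one. The median log2 fold change of the 9 tested members was -0.51, where the median of all tested genes was -0.0044. Because the list was chosen with earlier results of these data known, these shares and medians describe it and do not test it. In RNA from a whole culture, fewer cells that carry a transcript and less of it per cell cannot be told apart.

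**Figure D1:**
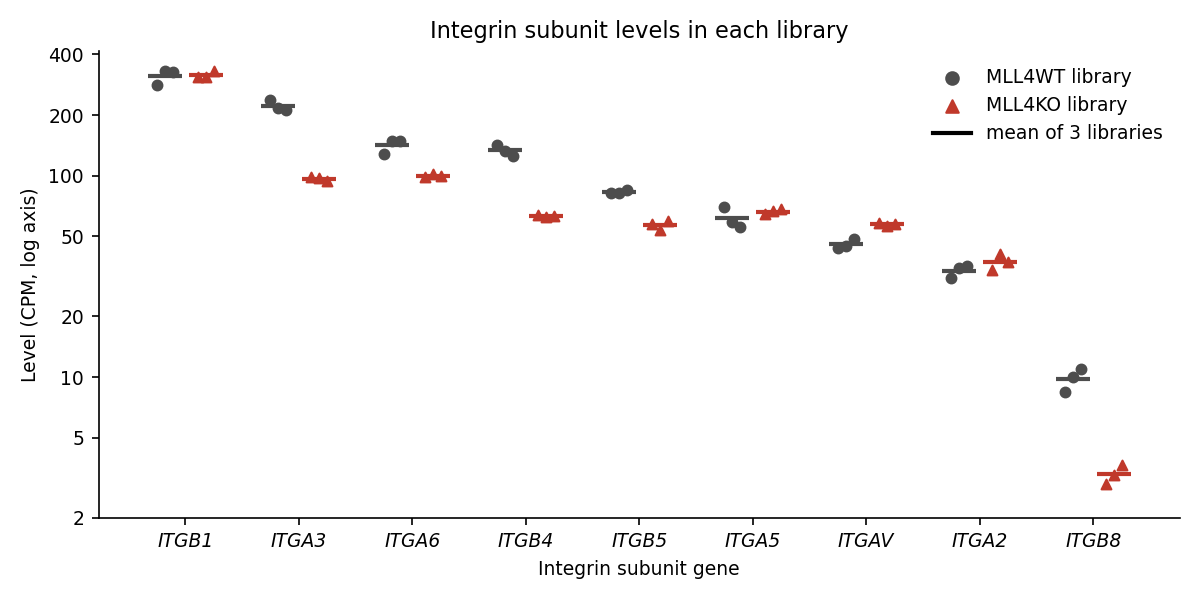
Level of each tested integrin gene in each library, in CPM on a log axis, with circles for MLL4WT, triangles for MLL4KO and a line at the mean of the 3 libraries of a genotype. The MLL4KO libraries lie below all MLL4WT libraries for ITGA3, ITGA6, ITGB4, ITGB5 and ITGB8 and above them for ITGAV. ITGB6 is left out because it had too few counts to be tested.

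Promoter sequence from RefSeq (GRCh38.p14) was matched for 8 of the 10 members, all but ITGA3 and ITGB4. The 250 bases before a start are shown for the 3 called members whose window nearest to the gene's 5′ end overlaps no exon of that gene in GENCODE release 29, to set 2 genes that fell beside the 1 that rose. These are ITGA6 at chr2:172427086-172427335 on the plus strand, ITGB5 at chr3:124901419-124901668 on the minus strand and ITGAV at chr2:186589806-186590055 on the plus strand. Capitals mark the GC box GGGCGG, a motif bound by SP-family factors, read on either strand.
ITGA6: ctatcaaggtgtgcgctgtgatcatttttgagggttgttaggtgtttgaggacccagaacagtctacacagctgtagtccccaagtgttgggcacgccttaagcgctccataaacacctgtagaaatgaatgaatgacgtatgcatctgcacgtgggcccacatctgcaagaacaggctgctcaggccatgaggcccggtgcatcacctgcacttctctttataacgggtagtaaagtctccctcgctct
ITGB5: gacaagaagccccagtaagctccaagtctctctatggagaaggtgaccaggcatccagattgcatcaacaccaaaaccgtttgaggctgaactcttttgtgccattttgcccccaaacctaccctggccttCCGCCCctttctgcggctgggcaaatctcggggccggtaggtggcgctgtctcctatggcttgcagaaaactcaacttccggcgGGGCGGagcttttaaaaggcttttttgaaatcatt
ITGAV: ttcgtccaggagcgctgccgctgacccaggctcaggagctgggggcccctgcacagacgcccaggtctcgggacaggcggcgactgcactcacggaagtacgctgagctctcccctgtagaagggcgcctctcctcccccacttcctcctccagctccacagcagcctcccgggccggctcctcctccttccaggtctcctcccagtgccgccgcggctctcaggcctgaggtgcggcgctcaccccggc
The ITGB5 window held 2 GC boxes, and the ITGA6 and ITGAV windows shown held none. The starts of these ITGA6 and ITGAV windows lie 18 and 9 bases before the gene's start in GENCODE. The other ITGA6 window, at chr2:172427336-172427585, has its start 232 bases inside the gene and held 3 GC boxes. The difference between ITGA6 and ITGB5 in GC boxes thus depends on the window chosen. Over the nearest windows of the 8 matched members, 5 held at least 1 GC box, beside 42.6% of all 35116 windows of the same length. The AP-1 letters TGACTCA or TGAGTCA, which read as each other on the opposite strand, were in none of the 8 and in 4.20% of all windows. All windows can include several starts of a gene, while each member gave only its nearest, so these sets are unlike. The nearest windows of ITGA2, ITGA5, ITGB1, ITGB6 and ITGB8 overlap exons of their gene, and all of these but that of ITGB6 held a GC box. The nearest ITGB1 window has its start 47562 bases inside the gene. Gene counts do not show which start these cells use.

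Among the α chains, ITGA3 had the largest fall. ITGA3 (ENSG00000005884, chromosome 17, 50055968 to 50090481) encodes the α chain of a receptor for epithelial laminins. It was measured at 236, 216 and 211 CPM in MLL4WT replicates 1 to 3 and at 98.2, 97.0 and 93.9 CPM in MLL4KO replicates 1 to 3. Every MLL4KO library lay below every MLL4WT library, and the spread within each genotype was small beside the gap. The fall was 2.29-fold, from 221 ± 13.3 to 96.3 ± 2.23 CPM (SD, n = 3; log2 -1.19 ± 0.05 SE, edgeR-adjusted p = 1.34e-08).

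ITGA6 (ENSG00000091409, chromosome 2, 172427354 to 172506282) encodes the laminin-binding α chain that pairs with ITGB1 or ITGB4. Its levels were 128, 149 and 148 CPM in MLL4WT and 98.9, 102 and 99.5 CPM in MLL4KO. The groups did not overlap, although MLL4WT replicate 1 lay nearer to the MLL4KO libraries than the other MLL4WT libraries did. ITGA6 fell 1.42-fold (log2 -0.51 ± 0.06, edgeR-adjusted p = 3.06e-05).

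ITGAV (ENSG00000138448, chromosome 2, 186590065 to 186680901), the α chain of the vitronectin receptors, was the 1 member that rose. It stood at 43.5, 44.8 and 48.7 CPM in MLL4WT and 58.2, 56.2 and 57.8 CPM in MLL4KO, with no overlap. The rise was 1.25-fold (log2 0.32 ± 0.06, edgeR-adjusted p = 0.00108). It was smaller, at log2 0.20, once trends with GC content and length were removed from each library (edgeR-adjusted p = 0.00888).

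ITGA5 and ITGA2 were not called. ITGA5 (ENSG00000161638, chromosome 12, 54395261 to 54419460), the α chain of the fibronectin receptor, was at 69.7, 58.9 and 55.7 CPM in MLL4WT and 64.2, 66.9 and 68.0 CPM in MLL4KO. The groups overlapped because MLL4WT replicate 1 was above all MLL4KO libraries, while replicates 2 and 3 were below them. The log2 fold change was 0.13 ± 0.07 (95% interval -0.03 to 0.29, edgeR-adjusted p = 0.170). It was 0.22 without MLL4WT replicate 1 (edgeR-adjusted p = 0.000742), past the threshold. With a term for a column-name code read as the sequencing flow cell it was 0.20 (edgeR-adjusted p = 0.00101), also past it. MLL4WT replicate 1 is alone on its code, so these 2 values rest on nearly the same libraries. Without MLL4WT replicate 3 it was 0.07 (edgeR-adjusted p = 0.531). ITGA2 (ENSG00000164171, chromosome 5, 52989326 to 53094779), the α chain of a collagen receptor, was at 30.9, 35.0 and 35.4 CPM in MLL4WT and 33.9, 40.9 and 37.4 CPM in MLL4KO. Its groups overlapped, with a log2 fold change of 0.13 ± 0.08 (95% interval -0.05 to 0.31, edgeR-adjusted p = 0.239). That of ITGA2 was 0.07 without MLL4KO replicate 2, 0.21 without MLL4KO replicate 1, 0.06 with the flow cell term and 0.02 with GC and length trends removed, none past the threshold.

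Of the β chains, 3 fell, ITGB1 did not pass the test and ITGB6 was not tested. ITGB4 (ENSG00000132470, chromosome 17, 75721328 to 75757818), the hemidesmosomal β chain with an unusually long cytoplasmic tail, was at 142, 133 and 126 CPM in MLL4WT and at 64.0, 62.4 and 63.0 CPM in MLL4KO. The groups were far apart, and the MLL4KO libraries were close to one another. ITGB4 fell 2.11-fold (log2 -1.08 ± 0.05, edgeR-adjusted p = 4.08e-08).

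ITGB8 (ENSG00000105855, chromosome 7, 20330702 to 20415754) encodes a β chain of a receptor that activates latent TGF-beta. It was the least abundant of the tested members, at 57, 146 and 191 counts or 8.47, 10.0 and 11.0 CPM in MLL4WT and 59, 53 and 55 counts or 2.93, 3.27 and 3.66 CPM in MLL4KO. The groups did not overlap, and both the counts were lower and the error larger than for the other tested members. ITGB8 fell 3.05-fold (log2 -1.61 ± 0.15, 95% interval -1.94 to -1.28, edgeR-adjusted p = 6.30e-06).

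ITGB5 (ENSG00000082781, chromosome 3, 124761948 to 124901418), the β chain of a vitronectin receptor, was at 81.7, 82.3 and 84.7 CPM in MLL4WT and 57.8, 53.5 and 59.3 CPM in MLL4KO. All 3 MLL4KO libraries were lower. ITGB5 fell 1.46-fold (log2 -0.55 ± 0.05, edgeR-adjusted p = 1.04e-05).

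ITGB1 (ENSG00000150093, chromosome 10, 32900319 to 33005792), the shared β chain, was at 280.4, 329 and 328 CPM in MLL4WT and 308, 309 and 329 CPM in MLL4KO. All 3 MLL4KO values lay inside the MLL4WT range. The log2 fold change was 0.01 ± 0.06, and its 95% interval of -0.12 to 0.14 covers changes from 0.918-fold to 1.10-fold (edgeR-adjusted p = 0.918). Its sign turned under 4 of 16 other settings, none of which passed the test. ITGB6 (ENSG00000115221, chromosome 2, 160099666 to 160200313), the β chain of another activator of latent TGF-beta, had 0, 4 and 3 counts in MLL4WT and 3, 2 and 0 counts in MLL4KO. These counts are at or near the floor of 3 counts used here, and no difference was detectable at this depth.

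Column names hold a code for each library, read here as a sequencing flow cell, which the labels do not state. MLL4WT replicate 1 was alone on its code, and its column name also ended differently from all others. Within the code that held MLL4WT replicate 2 and MLL4KO replicates 2 and 3, the log2 ratio of MLL4KO to MLL4WT was -1.18 for ITGA3, -1.09 for ITGB4, -1.53 for ITGB8, -0.56 for ITGA6, -0.54 for ITGB5 and 0.35 for ITGAV. Within the code that held MLL4WT replicate 3 and MLL4KO replicate 1, the same log2 ratios were -1.10, -0.97, -1.90, -0.58, -0.55 and 0.26. The groups did not overlap for any of the 6 called members, so the same direction within both codes was fixed in advance. It is therefore no check on the codes, and only the sizes of these ratios describe them. ITGA5 was at 0.19 and 0.20 and ITGB1 at -0.05 and -0.09 in the 2 codes, while ITGA2 differed in sign at 0.16 and -0.06. Without MLL4WT replicate 1 the fitted log2 fold changes were -1.14 for ITGA3, -1.03 for ITGB4, -1.68 for ITGB8, -0.56 for ITGA6, -0.55 for ITGB5 and 0.30 for ITGAV, all still called.

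**Figure D2:**
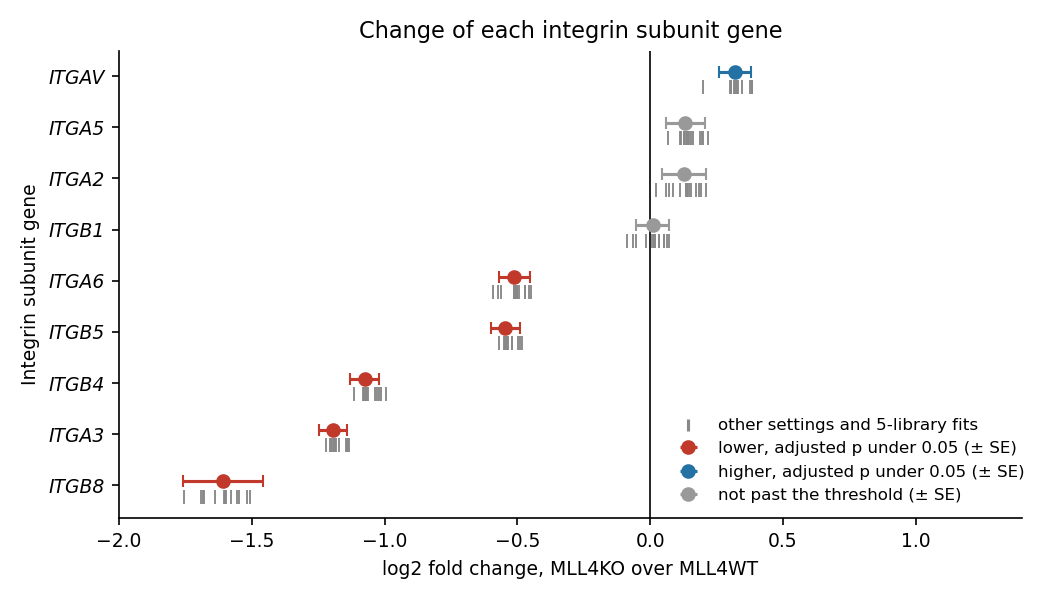
The log2 fold change of MLL4KO over MLL4WT for each of the 9 tested integrin genes, as a point with its standard error and coloured by whether it passed the edgeR test; grey ticks are the values under the other settings and with each library left out. The 5 genes that fell and ITGAV keep their side of 0 under every tick, while the ticks of ITGB1 lie on both sides.

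To set the members in order within a genotype, levels were divided by the length of the gene's annotated exons, in CPM per kilobase. In MLL4WT the order was ITGB1 at 52.0 ± 4.62, ITGA3 at 22.6 ± 1.36, ITGA6 at 21.7 ± 1.78, ITGB4 at 19.8 ± 1.22, ITGB5 at 12.9 ± 0.246, ITGA5 at 8.11 ± 0.966, ITGAV at 5.56 ± 0.328, ITGA2 at 4.27 ± 0.315 and ITGB8 at 0.648 ± 0.0833 (SD, n = 3), with ITGB6 below. ITGA3 and ITGA6, and ITGA6 and ITGB4, overlapped between libraries, and the other neighbours in this order did not. ITGA3 was above ITGA6 in MLL4WT replicate 1 (24.1 and 19.6 CPM per kilobase) and below it in replicates 2 (22.1 and 22.8) and 3 (21.5 and 22.7). In MLL4KO, ITGA6 at 15.3 ± 0.221 was above ITGA3 at 9.83 ± 0.228 CPM per kilobase, with no overlap. ITGB4 followed at 9.33 ± 0.116, ITGB5 at 8.83 ± 0.464 and ITGA5 at 8.76 ± 0.257, of which only ITGB5 and ITGA5 overlapped. The ratio between 2 genes on this scale depends on the exon length used, which counts every annotated exon.

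The α pool was smaller in MLL4KO and ITGA3 took a smaller share of it. The summed length-scaled level of the 5 α chains was 62.1, 62.5 and 62.0 CPM per kilobase in MLL4WT and 45.0, 46.3 and 45.6 in MLL4KO. ITGA3 made up 38.8%, 35.3% and 34.7% of that sum in MLL4WT and 22.3%, 21.4% and 21.0% in MLL4KO. ITGAV went from 8.94% ± 0.554 to 15.3% ± 0.496, ITGA5 from 13.0% ± 1.55 to 19.2% ± 0.454 and ITGA2 from 6.86% ± 0.506 to 10.4% ± 0.816 (SD, n = 3), each without overlap. For ITGA5 and ITGA2 the share was higher in MLL4KO although their own levels were not called, because the sum was lower. ITGA6 made up 34.9% ± 2.84 in MLL4WT and 33.6% ± 0.109 in MLL4KO, with overlapping libraries.

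Within the β pool the share of ITGB1 was higher in MLL4KO. Its summed level was 80.9, 88.0 and 87.0 CPM per kilobase in MLL4WT and 70.0, 69.2 and 73.5 in MLL4KO. ITGB1 made up 60.9% ± 2.79 of it in MLL4WT and 74.0% ± 0.621 in MLL4KO, while ITGB4 made up 23.3% ± 2.43 and 13.2% ± 0.449 and ITGB5 15.1% ± 0.577 and 12.4% ± 0.415 (SD, n = 3). The groups did not overlap for any of these 3 shares. ITGB8 was under 1% of the pool in every library.

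**Figure D3:**
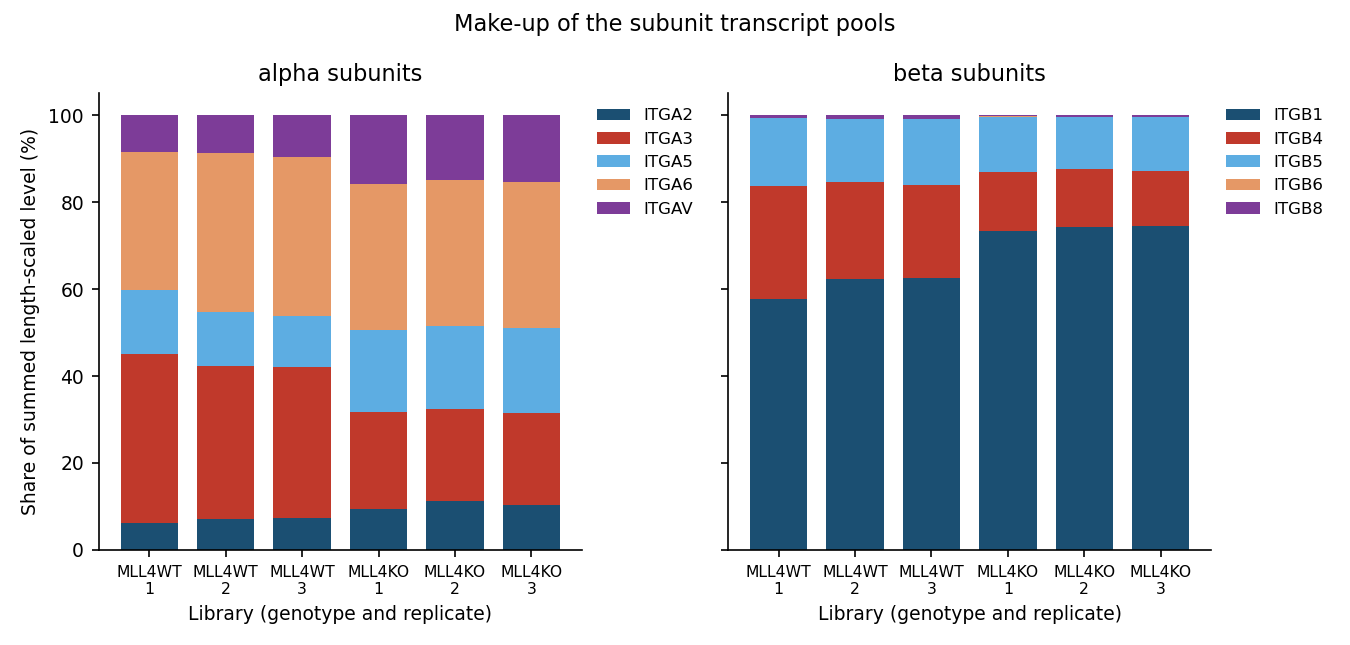
Share of each subunit in the summed length-scaled level (%) of the 5 α chain genes, left, and of the 5 β chain genes, right, with 1 stacked bar for each library. On average the ITGA3 block is 36.3% of the α pool in MLL4WT and 21.6% in MLL4KO, the ITGB4 block 23.3% and 13.2% of the β pool, and the ITGB1 block 60.9% and 74.0%.

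Ratios of partner subunits within a library do not depend on how libraries were scaled, and 8 of the 9 partner pairs had counts enough for them. The log2 ratio of ITGA6 to ITGB4 counts, the 2 chains of the hemidesmosome receptor, was -0.15, 0.16 and 0.24 in MLL4WT and 0.63, 0.70 and 0.66 in MLL4KO, a difference of 0.58. For ITGAV and ITGB5 the log2 ratio was -0.91, -0.88 and -0.80 in MLL4WT and 0.01, 0.07 and -0.04 in MLL4KO, a difference of 0.88. For ITGAV and ITGB8 the log2 ratio was 2.22 ± 0.12 in MLL4WT and 4.13 ± 0.17 in MLL4KO (SD, n = 3), a difference of 1.91.

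Against ITGB1, the log2 ratio of ITGA3 differed by -1.22 (-0.50 ± 0.22 in MLL4WT, -1.71 ± 0.09 in MLL4KO), that of ITGA6 was -1.14 ± 0.01 and -1.66 ± 0.06, and that of ITGAV was -2.77 ± 0.10 and -2.46 ± 0.05 (SD, n = 3). These 6 pairs did not overlap between genotypes. Each had the smallest p that 3 libraries against 3 allow, an exact two-sided permutation p of 0.1 (0.133 adjusted over the 8 pairs), which cannot reach 0.05. ITGA2 and ITGA5 against ITGB1 overlapped between genotypes (exact permutation p = 0.2 and 0.5).

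Integrin subunits outside the epithelial list were mostly near the limit of detection. Of the 16 others, 6 were tested, 3 rose, none fell and 3 did not pass the edgeR test, where 19.8% of all tested genes rose and 21.6% fell. At an unadjusted edgeR p under 0.05 1 gene was lower, ITGAE, named after its values were seen (log2 -0.25, edgeR-adjusted p = 0.0694), while DESeq2 and limma-voom also called 0 falls after adjustment. ITGA1, the α chain of another collagen receptor, rose 2.16-fold, from 1.49, 1.65 and 1.61 CPM to 2.93, 3.51 and 3.99 CPM in MLL4KO (edgeR-adjusted p = 0.00184). ITGAX and ITGA2B, known mainly from blood cells, were at 1.04 ± 0.149 and 1.28 ± 0.323 CPM in MLL4WT and 2.17 ± 0.609 and 2.27 ± 0.116 CPM in MLL4KO (SD, n = 3; edgeR-adjusted p = 0.0144 and 0.0302). The ITGAX call was lost without MLL4WT replicate 2 or MLL4KO replicate 3, and the ITGA2B call without MLL4WT replicate 3 or any 1 MLL4KO replicate (edgeR-adjusted p between 0.0606 and 0.116). DESeq2 did not call ITGA2B either (log2 0.81, where edgeR gave 0.79; adjusted p = 0.102), nor did edgeR with the flow cell term (edgeR-adjusted p = 0.0550). Of the 6 leukocyte markers only CD68 had counts enough to be tested (log2 -0.62, edgeR-adjusted p = 0.220), and the list summed to 2.23 to 6.26 CPM in MLL4WT and 3.20 to 4.85 CPM in MLL4KO; the part of these markers in the ITGAX and ITGA2B results was not tested.

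Genes for the matrix proteins that integrins bind went both ways, the laminin chains among them. Of 28 ligand genes 20 were tested, 6 rose, 10 fell and 4 did not pass, with a median log2 fold change of -0.23. Among all tested genes 19.8% rose and 21.6% fell. LAMB3, a chain of the main laminin of epithelial basement membranes, fell 3.47-fold from 29.4 ± 0.813 CPM to 8.47 ± 0.452 CPM in MLL4KO, with no overlap (edgeR-adjusted p = 1.59e-08). LAMA3, another laminin chain of epithelial basement membranes, fell 2.89-fold from a low level of 2.64 ± 0.251 CPM (edgeR-adjusted p = 0.00180). LAMA5 of another laminin fell 1.55-fold (edgeR-adjusted p = 0.000128). LAMA2 fell 2.03-fold (edgeR-adjusted p = 0.000123) and LAMB2 fell 1.16-fold (edgeR-adjusted p = 0.0201). LAMC3 rose 1.29-fold (edgeR-adjusted p = 0.00147), and LAMC1 did not pass the test (log2 -0.04, edgeR-adjusted p = 0.48). LAMA2, LAMA3, LAMA5, LAMB2, LAMC1 and LAMC3 are named here after their values were seen.

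Other ligand genes in the same list rose. LAMB1, a widely expressed laminin β chain, rose 2.85-fold from 14.7, 16.1 and 14.8 CPM to 44.9, 39.7 and 46.0 CPM in MLL4KO (edgeR-adjusted p = 7.43e-08). FN1, which encodes the fibronectin bound by ITGA5 and ITGAV dimers, rose to 26.6 ± 0.758 CPM from 15.8 ± 1.24 CPM (edgeR-adjusted p = 1.22e-05). LTBP1, which tethers latent TGF-beta to the matrix, rose 1.65-fold (edgeR-adjusted p = 7.41e-06), and HSPG2, the perlecan gene, rose 1.76-fold (edgeR-adjusted p = 0.00103). CCN1 and CCN2, secreted matricellular ligands of ITGAV dimers, fell 4.68-fold and 3.58-fold (edgeR-adjusted p = 1.33e-06 and 4.72e-07).

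Hemidesmosome and membrane partners of the members went both ways. Of the 16 genes in that list all were tested, 6 fell, 3 rose and 7 did not pass, with a median log2 fold change of -0.05. The shares over all tested genes were 21.6% lower and 19.8% higher. CD151, the tetraspanin that binds the ITGA3 and ITGA6 chains, fell 1.55-fold, from 182, 190 and 185 CPM to 119, 120 and 120 CPM in MLL4KO (edgeR-adjusted p = 5.64e-07). PLEC, the plectin gene whose product ties ITGB4 to keratin filaments, fell 1.23-fold, from 829 ± 23.9 to 675 ± 25.2 CPM in MLL4KO (edgeR-adjusted p = 0.000290). DST, which encodes another hemidesmosome linker and is named after its values were seen, fell 1.39-fold (edgeR-adjusted p = 0.000520). COL17A1, the hemidesmosomal collagen gene, also named after its values were seen, did not pass the test (log2 0.61, edgeR-adjusted p = 0.144).

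TSPAN1, a tetraspanin of epithelial cells, fell 11.9-fold, from 7.10 ± 1.30 to 0.591 ± 0.342 CPM in MLL4KO (edgeR-adjusted p = 4.49e-06). It had only 12, 4 and 14 counts in MLL4KO replicates 1 to 3, so the size of this fold is uncertain. SLC3A2, whose product binds ITGB1, fell 1.35-fold (edgeR-adjusted p = 8.80e-06). The 3 that rose were CD47, an ITGAV-associated receptor, at 1.48-fold, CD9, a tetraspanin, at 1.24-fold and CD82, a tetraspanin, at 1.70-fold (edgeR-adjusted p between 4.43e-05 and 0.00120).

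Cytoplasmic adaptors of focal adhesions changed in both directions. Of 34 listed genes 32 were tested, 13 fell, 7 rose and 12 did not pass, with a median log2 fold change of 0.01. Over all tested genes 21.6% fell and 19.8% rose. VCL, the vinculin gene, fell 2.47-fold, from 309, 319 and 304 CPM to 126, 126 and 125 CPM in MLL4KO (edgeR-adjusted p = 1.12e-09). TNS4, a tensin that binds β tails, fell 2.79-fold from 73.6 ± 7.77 to 26.1 ± 0.739 CPM, ACTN4, an α-actinin gene, fell 1.73-fold, and PXN, the paxillin gene, fell 1.50-fold (edgeR-adjusted p between 4.40e-08 and 7.00e-06). TNS3, another tensin, rose 1.70-fold from 79.2 ± 5.90 to 134 ± 1.56 CPM, opposite to TNS4 (edgeR-adjusted p = 9.44e-07). TLN2, a talin gene, rose 1.32-fold, RAP1A, a GTPase of integrin activation, 1.25-fold and ACTN1 1.14-fold (edgeR-adjusted p between 0.000678 and 0.00345). TLN1 and ILK, central to linking β tails to actin and named after their values were seen, did not pass the test (log2 0.01 and 0.06, edgeR-adjusted p = 0.851 and 0.332).

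**Figure D4:**
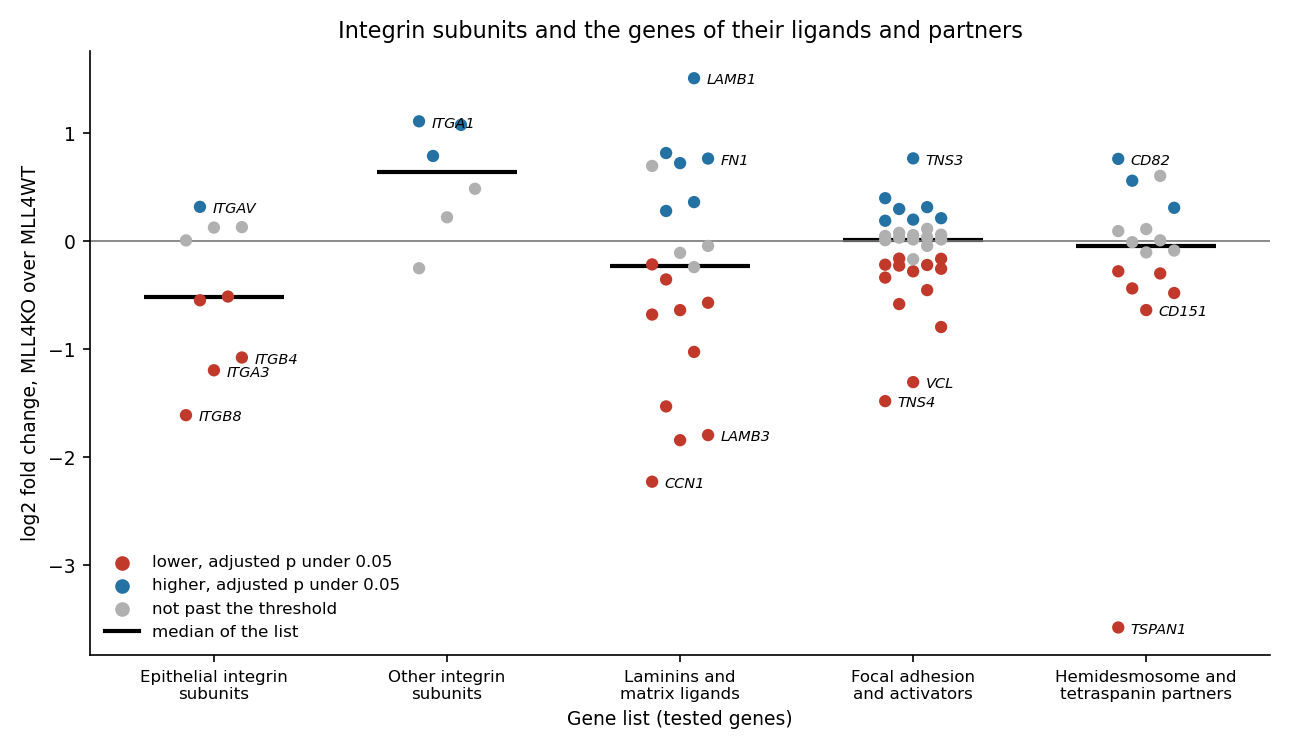
The log2 fold change of MLL4KO over MLL4WT of every tested gene in the integrin list and in the lists of other integrins, ligands, focal adhesion genes and membrane partners, with a bar at each list's median and some genes labelled. The epithelial integrins have a median of -0.51, and the ligand list spans LAMB1 at 1.51 to CCN1 at -2.23.

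The members' changes were set beside those of the 3 tested genes on either side. Around the 5 members that fell there were 30 such neighbours, of which 8 rose, 6 fell and 16 did not pass, or 46.7% called beside 41.4% of all tested genes, with a median log2 fold change of 0.01. Directly beside ITGA3, PDK2 rose 1.13-fold (edgeR-adjusted p = 0.0433). Beside ITGB4, GALK1, which overlaps it on the opposite strand, rose 1.18-fold, from 26.5 to 30.9 CPM in MLL4KO (edgeR-adjusted p = 0.0194); reads of the overlap cannot be assigned where strand is not kept. ITGB5 lay between UMPS, which fell 1.18-fold, and HEG1, which rose 1.68-fold (edgeR-adjusted p = 0.0105 and 8.17e-06).

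Beside ITGB8, MACC1 fell 1.88-fold, from 3.95 to 2.12 CPM in MLL4KO (edgeR-adjusted p = 0.00490). Beside ITGAV, FAM171B rose 1.37-fold (edgeR-adjusted p = 0.000190), and beside ITGA5, GTSF1 fell 1.11-fold (edgeR-adjusted p = 0.0421). ITGA1 is the second tested gene before ITGA2, with 30.1 kb between them, and rose while ITGA2 was not called; the difference between these 2 changes was not tested. Apart from GALK1, the genes annotated across the 10 members held at most 14 counts in any library.

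**Figure D5:**
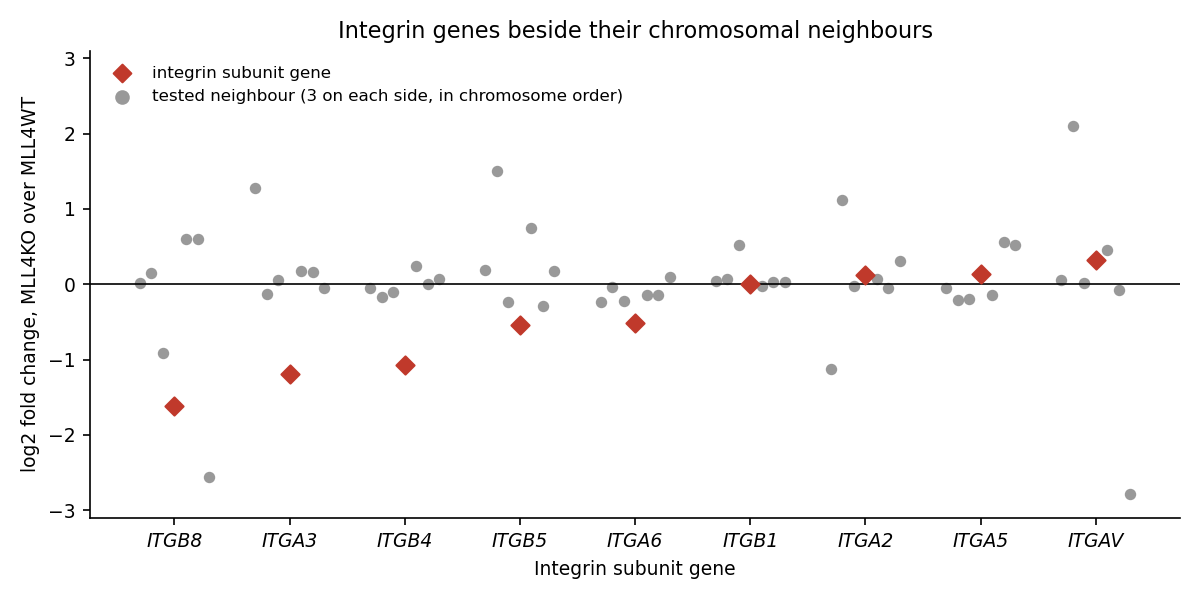
The log2 fold change of each tested integrin gene (diamond) and of the 3 tested genes on either side of it in chromosome order (grey points). ITGA3 at -1.19, ITGB4 at -1.08, ITGB5 at -0.55 and ITGA6 at -0.51 lie below all 6 of their neighbours. The neighbours of ITGB8 range from -2.56 to 0.61 and those of ITGAV from -2.79 to 2.10.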

How the data were processed

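Poly(A)-selected RNA of 6 HCT116 libraries was measured. The deposited values are expected counts per Ensembl gene, given as whole numbers without normalisation; Salmon 1.8.0, DESeq2 1.44.0 and build hg38 are named with no role in the submitters' processing notes, and no annotation is stated. Reads shared between similar or overlapping genes may have been split by that estimation. All 6 columns were used. Genes passing filterByExpr were compared with the quasi-likelihood test of edgeR 4.0.16 (R 4.3.3, TMM scaling, robust, no covariate), with Benjamini-Hochberg adjustment. SEs came from the F statistic, and 95% intervals from its degrees of freedom. CPM used the same scaling. The shallowest library holds 3 counts at 0.446 CPM. Symbols were found for 55764 IDs, and positions and exon lengths came from GENCODE release 29 (GRCh38, the build also called hg38).

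The members and the 4 other lists were chosen with earlier results of these data known. Named are all members, up to 4 called genes of each direction with the smallest adjusted p in each list, called neighbours next to a member, and others stated as such. Pair ratios used an exact permutation test. Alternatives were other scalings and filters, DESeq2 1.42.0, limma-voom (limma 3.58.1), a replicate block, a flow cell term, GC and length trends removed by lowess (span 0.3), and each library left out. Protein sequences were not used here. One gene that the naming rule selects is not reported here.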

Additional observations from a re-analysis of the deposited data

How the results depend on the processing

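The 5 members that fell and ITGAV, which rose, kept their direction and stayed past the threshold under all 16 alternatives, with log2 fold changes of -1.22 to -1.13 for ITGA3, -1.11 to -0.99 for ITGB4, -1.76 to -1.51 for ITGB8, -0.59 to -0.45 for ITGA6, -0.57 to -0.48 for ITGB5 and 0.20 to 0.38 for ITGAV. With the flow cell term 2 members rose, ITGAV and ITGA5, and with 1 library left out 1 to 2 did. The cause was not tested. ITGB1, not called, changed sign with the flow cell term (-0.064) and with GC and length trends removed (-0.089), and ranged from -0.052 to 0.052 with 1 library left out, below 0 without MLL4WT replicate 1 or MLL4KO replicate 3. KMT2D, also not called, changed sign with total counts alone (0.048) and upper quartile factors (0.040), and ranged from -0.040 to 0.015 with 1 library left out.

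Of the other integrin subunits, 1 to 3 rose with a library left out, and 0 to 1 fell; 1 fell with the flow cell term. In the list of membrane partners 5 rose with the flow cell term, and 3 to 5 with a library left out. Over all genes 2885 rose and 3136 fell, with 3706 and 2394 under total counts alone and 3561 and 2475 under upper quartile factors. The ratio of ITGA5 to ITGB1 had a difference of -0.0036 to 0.27 with a library left out, negative only without MLL4WT replicate 3. The labels state no pairing of same-numbered libraries of the 2 genotypes, and their deviations correlated at 0.02, 0.03 and -0.01. Replicate 2 of both genotypes shared a flow cell code. With the replicate block 1 member rose and 5 fell, 2689 genes rose and 3024 fell, and no member's call changed. The call of ITGA2B was lost with the block, at log2 0.81 beside 0.79 without it (edgeR-adjusted p = 0.0595). Depth limits ITGB6 and the other integrins near 1 CPM.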
